A study of Mus musculus with 35 samples.

Results

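Chemokine receptors were examined in sorted liver macrophages (macs) by taking 8 genes by symbol from the count file of each sample: *Ccr1*, *Ccr2*, *Ccr3*, *Ccr7*, *Ccrl2*, *Cx3cr1*, *Cxcr3* and *Cxcr4*. All 8 were among the 54735 gene symbols of the files, and all 8 were among the 13421 genes with over 1 CPM (counts scaled to a common library size) in at least 5 samples. The 35 bulk RNA-seq samples came from C57Bl/6J mice, and the study used only males for its diet experiments. Resident Kupffer cells (ResKCs, sorted as CLEC4F+TIM4+) gave 7 samples after 12 weeks and 6 samples after 24 weeks on a standard diet (SD), and 5 samples after 12 weeks and 6 samples after 24 weeks on a Western diet (WD), a feed rich in fat and cholesterol given with sugared drinking water to induce fatty liver disease (MAFLD). From mice kept on the WD for 24 weeks there were also 5 samples of monocyte-derived Kupffer cells (moKCs, CLEC4F+TIM4-) and 6 of CLEC4F- macs. No gene was altered in these mice. No moKCs or CLEC4F- macs from the SD were analysed here, so these populations cannot be compared between diets. The labels name the ResKC groups only as Kupffer cells, and for the 5 WD samples at 12 weeks the diet field conflicts with the title, so the title was followed. The names of the alignments follow a first scheme in 22 samples and a second in 13. Whether these schemes mark batches is not stated.

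Libraries held 11568590 to 15163845 counts, so that 3 counts correspond to 0.198 to 0.259 CPM, a floor that covers counting error only. The genes of the sorting markers fitted the gates: *Timd4*, which encodes TIM4, lay between 547 and 1358 CPM over the ResKC groups but between 2.85 and 30.3 CPM in moKCs, and *Clec4f* was at 7326 CPM or more in every Kupffer cell sample. Among the CLEC4F- macs, replicate 4 stood apart with 5488 CPM of *Clec4f* against 294 to 1539 CPM in the others. Replicate 1 of the same group had the highest summed markers of B cells (169 CPM against 28.3 to 61.8 CPM), dendritic cells (200 CPM against 29.4 to 85.0 CPM) and T cells (39.3 CPM against 11.0 to 16.1 CPM). Receptors whose calls rest on these libraries are given with and without them.

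Chemokine receptors are G-protein-coupled receptors in the cell membrane that steer leukocytes along gradients of chemokines. CCR2 binds CCL2 and draws classical monocytes out of the bone marrow and into inflamed tissue, CCR1 and CCR3 bind other inflammatory CC chemokines, and CX3CR1 binds fractalkine and marks patrolling monocytes and many tissue macs. CCR7 guides dendritic cells and lymphocytes to lymph nodes, CXCR4 binds CXCL12 and retains cells in the bone marrow, and CXCR3 binds interferon-induced chemokines. CCRL2 is atypical: it binds chemerin without signalling as the others do. Resident Kupffer cells settle in the liver sinusoids, whereas monocytes reach the liver through such receptors before they can take up a Kupffer cell identity.

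In GENCODE M21, an annotation of the mm10 build used for mapping, 5 of the 8 genes are on chromosome 9, which holds 5.34% of the tested genes with a position. *Ccr1* (chr9:123962124-123968692, minus strand), *Ccr3* (chr9:124021972-124031689, plus strand) and *Ccr2* (chr9:124101950-124113557, plus strand) lie in a cluster that spans 151434 bases. *Ccrl2* (chr9:111054486-111057519, minus strand) and *Cx3cr1* (chr9:119901616-120069879, minus strand) are on the same chromosome. The annotated span of *Cx3cr1* overlaps other genes, and since the strand setting of the counting is not given in the sources used here, reads in the overlaps cannot be assigned with certainty. *Ccr7* (chr11:99144196-99155077, minus strand), *Cxcr3* (chrX:101731535-101734269, minus strand) and *Cxcr4* (chr1:128588199-128592293, minus strand) lie elsewhere.

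*Ccr1*, *Ccr2*, *Ccr3* and *Cx3cr1* were the receptors that differed in expression between moKCs and ResKCs on the WD, as described further on, and their promoter sequences are shown for this reason. Each runs 5′ to 3′ from 250 bases before to 50 bases after the RefSeq start, on the strand of the gene, in build GRCm38.p6: chr9:123968643-123968942 for *Ccr1*, chr9:124101933-124102232 for *Ccr2*, chr9:124021721-124022020 for *Ccr3* and chr9:120068247-120068546 for *Cx3cr1*. Capitals mark matches to the core motif of PU.1 (GAGGAA), a transcription factor of myeloid cells, or to the AP-1 motif (TGANTCA), each searched on both strands.
Ccr1: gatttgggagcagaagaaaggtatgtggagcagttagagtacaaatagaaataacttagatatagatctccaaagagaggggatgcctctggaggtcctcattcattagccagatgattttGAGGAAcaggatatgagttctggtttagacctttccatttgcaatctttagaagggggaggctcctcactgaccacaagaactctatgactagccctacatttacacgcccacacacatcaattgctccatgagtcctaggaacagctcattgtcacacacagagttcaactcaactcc
Ccr2: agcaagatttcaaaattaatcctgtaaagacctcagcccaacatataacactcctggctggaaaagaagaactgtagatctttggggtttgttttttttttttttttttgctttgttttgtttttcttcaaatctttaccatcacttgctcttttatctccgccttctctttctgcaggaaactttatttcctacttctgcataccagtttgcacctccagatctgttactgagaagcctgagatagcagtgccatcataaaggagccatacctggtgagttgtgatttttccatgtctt
Ccr3: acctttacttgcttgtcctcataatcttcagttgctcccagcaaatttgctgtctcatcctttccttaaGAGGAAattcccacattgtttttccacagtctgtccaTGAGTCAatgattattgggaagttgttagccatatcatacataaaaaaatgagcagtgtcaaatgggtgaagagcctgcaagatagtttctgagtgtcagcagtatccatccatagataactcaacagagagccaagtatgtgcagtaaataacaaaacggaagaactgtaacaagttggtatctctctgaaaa
Cx3cr1: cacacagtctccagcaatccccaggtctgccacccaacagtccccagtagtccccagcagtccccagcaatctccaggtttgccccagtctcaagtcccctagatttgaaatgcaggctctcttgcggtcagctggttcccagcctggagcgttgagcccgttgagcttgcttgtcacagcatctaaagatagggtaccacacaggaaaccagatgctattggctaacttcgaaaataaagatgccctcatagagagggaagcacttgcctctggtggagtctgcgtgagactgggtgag

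The *Ccr1* window held 1 match to the PU.1 core, and the *Ccr3* window held 1 match to the PU.1 core and 1 match to the AP-1 motif, whereas the *Ccr2* and *Cx3cr1* windows held none of either. Of 32851 promoters of this length, 28.3% held the PU.1 core and 7.81% the AP-1 motif. Of the other receptors with a promoter in the table, *Cxcr3* held 1 match to the PU.1 core, and neither *Cxcr4* nor any of the 3 starts of *Ccrl2* held a match to either motif. *Cxcr4* held the TATA motif (TATAAA), which 13.6% of promoters held. Such matches describe letters and are not evidence of binding.

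The first question was how the macs of the WD liver at 24 weeks differ in these receptors. CLEC4F- macs had the highest mean level of 6 of the 8 receptors among all 6 groups, *Ccr3* had its highest mean in moKCs and *Cxcr3* had its highest mean in SD ResKCs at 12 weeks. Against CLEC4F- macs, 7 of the 8 receptors were differentially expressed in WD ResKCs and all 7 were lower, where 10.4% of the 13421 tested genes were differentially expressed and 6.04% were lower. A gene counted as differentially expressed where its log2 fold change exceeded 1 in size and its p, from the quasi-likelihood test of edgeR after Benjamini-Hochberg adjustment across the tested genes (edgeR adjusted p), was under 0.05. In moKCs, 5 of the 8 were differentially expressed against CLEC4F- macs and all 5 were lower, against a background of 5.05% of genes in either direction and 2.71% lower. Between ResKCs and moKCs, 4 of the 8 differed, all lower in ResKCs, against 1.39% of all genes and 0.536% lower. The median log2 fold change of the 8 receptors was -3.10 in ResKCs and -2.07 in moKCs against CLEC4F- macs, and -1.60 between ResKCs and moKCs, beside medians over all genes of -0.02, 0.01 and -0.02. These comparisons share samples, so their counts are not independent of each other. The 8 receptors were chosen with earlier results of these data known, so the shares set beside their counts, here and below, are a description only. In bulk samples, fewer cells with a transcript and less transcript per cell cannot be told apart.

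**Figure D1:**
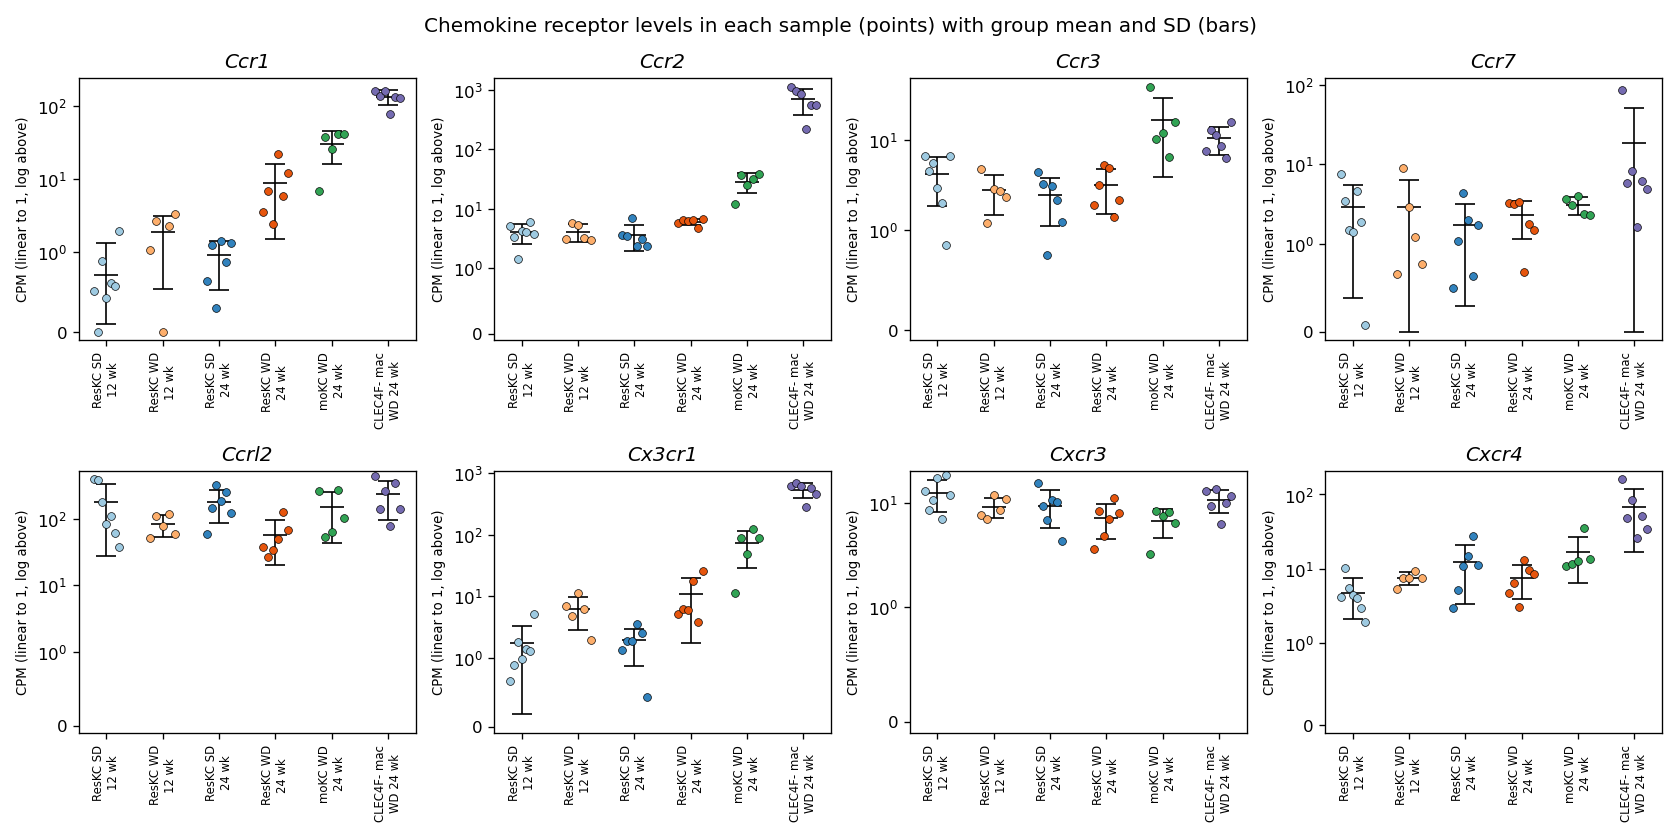
Level of each receptor in CPM (TMM-scaled, axis linear up to 1 and logarithmic above) in the 6 groups. Points are samples, and bars are the group mean and SD, cut at 0 where the SD exceeds the mean. *Ccr1*, *Ccr2* and *Cx3cr1* climb from WD ResKCs at 24 weeks through moKCs to CLEC4F- macs, whereas *Cxcr3* spans 3.23 to 18.4 CPM over all samples and its groups overlap.

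*Ccr2*, the receptor of classical monocytes, ranged from 217 CPM to 1131 CPM in CLEC4F- macs, with a median of 719 CPM. The 5 moKC samples had 12.1, 36.7, 25.0, 31.7 and 38.1 CPM, and WD ResKCs at 24 weeks had 4.65 to 6.62 CPM with a median of 6.33 CPM. The 3 ranges did not overlap, and the lowest CLEC4F- mac value was that of replicate 4, the library with high *Clec4f*. In fold terms, *Ccr2* was 118-fold lower in ResKCs than in CLEC4F- macs (edgeR adjusted p = 8.91e-16), 25.0-fold lower in moKCs than in CLEC4F- macs (edgeR adjusted p = 5.84e-11) and 4.74-fold lower in ResKCs than in moKCs (log2 fold change -2.25 ± 0.32 (SE), edgeR adjusted p = 4.18e-05). The remaining ResKC groups lay between 1.40 and 6.85 CPM, with means of 3.61 to 4.07 CPM.

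Some monocyte markers, taken from longer lists, were higher in the same CLEC4F- macs. They do not stand for their lists, whose sums overlapped between the populations or were lower in CLEC4F- macs. *Ly6c2*, a marker of classical monocytes, had a mean of 7.39 CPM in CLEC4F- macs, 0.257 CPM in moKCs and 0.215 CPM in WD ResKCs, and *Chil3* had 17.7, 0.268 and 0.193 CPM in this order. *F13a1* had 65.0, 3.40 and 6.71 CPM, and *Ace*, a marker of patrolling monocytes, had 24.8, 2.75 and 1.68 CPM. The summed 7 classical monocyte markers overlapped, with 210 to 383 CPM in CLEC4F- macs, 185 to 426 CPM in moKCs and 219 to 345 CPM in WD ResKCs. The summed 5 patrolling monocyte markers were lower in CLEC4F- macs, with 748 to 1072 CPM against 1202 to 1397 CPM and 1253 to 1679 CPM. The part of monocytes in the levels of *Ccr2* and *Cx3cr1* was not tested.

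*Cx3cr1*, the fractalkine receptor, followed the same order. CLEC4F- macs had 281 to 687 CPM with a median of 586 CPM, the moKC samples had 11.2, 87.6, 49.2, 124 and 88.8 CPM, and WD ResKCs at 24 weeks had 3.77 to 26.0 CPM with a median of 6.02 CPM. CLEC4F- macs were above every other sample, while the lowest moKC sample, replicate 1, lay within the range of the ResKCs. The log2 fold change was -5.64 ± 0.52 (SE) in ResKCs against CLEC4F- macs (edgeR adjusted p = 5.11e-10), -2.89 ± 0.49 in moKCs against CLEC4F- macs (edgeR adjusted p = 5.18e-05) and -2.74 ± 0.48 in ResKCs against moKCs (edgeR adjusted p = 0.000579).

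*Ccr1*, a receptor for CCL3, CCL5 and other inflammatory chemokines, reached 77.7 to 162 CPM in CLEC4F- macs, with a median of 135 CPM. The moKC samples had 6.84, 37.0, 25.8, 41.7 and 41.0 CPM, and WD ResKCs at 24 weeks had 2.38 to 21.6 CPM with a median of 6.31 CPM. CLEC4F- macs stood above every other sample, whereas moKC replicate 1 again lay among the ResKCs. Against CLEC4F- macs, the log2 fold change of *Ccr1* was -3.94 ± 0.47 (SE) in ResKCs (edgeR adjusted p = 5.51e-08) and -2.13 ± 0.46 in moKCs (edgeR adjusted p = 0.0011). Its difference of -1.81 ± 0.46 between ResKCs and moKCs (edgeR adjusted p = 0.0212) was less secure: DESeq2 gave an adjusted p of 0.0588, a fit of both groups alone gave 0.0972, over all settings the adjusted p ranged from 0.0157 to 0.0972, and the call was lost in 6 of 11 fits that left out 1 sample.

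*Ccr3*, known as the eotaxin receptor of eosinophils, had another order. The moKC samples had 38.4, 10.2, 11.9, 6.36 and 15.7 CPM, CLEC4F- macs had 6.29 to 15.6 CPM with a median of 9.86 CPM, and WD ResKCs at 24 weeks had 1.40 to 5.29 CPM with a median of 2.64 CPM. Every moKC and CLEC4F- mac sample was above every WD ResKC sample at 24 weeks, while moKCs and CLEC4F- macs overlapped. The highest value was that of moKC replicate 1, the sample with the lowest *Ccr1*, *Ccr2*, *Cx3cr1*, *Cxcr3* and *Cxcr4* of its group. Its summed hepatocyte markers (1944 CPM against 912 to 1302 CPM) and endothelial markers (1097 CPM against 458 to 889 CPM) were the highest of the moKCs. Its summed B-cell markers were the lowest (16.5 CPM against 36.0 to 52.1 CPM). The part of other cells in the receptor levels of this sample was not tested. *Ccr3* was 5.27-fold lower in ResKCs than in moKCs (log2 fold change -2.40 ± 0.47 (SE), edgeR adjusted p = 0.00216) and 3.29-fold lower in ResKCs than in CLEC4F- macs (-1.72 ± 0.45, edgeR adjusted p = 0.00307). Between moKCs and CLEC4F- macs the log2 fold change was 0.68 ± 0.44 (edgeR adjusted p = 0.355). Without each sample in turn, the call between ResKCs and moKCs held in 11 of 11 fits, with a log2 fold change of -1.81 (edgeR adjusted p = 0.0152) without moKC replicate 1. Of 5 eosinophil markers, *Epx* and *Ear6* were at 0 in every moKC and CLEC4F- mac sample, and the summed level of 7.10 to 28.6 CPM in moKCs was nearly all *Siglecf* (6.65 to 28.6 CPM). In moKC replicate 1, which had the highest *Ccr3*, the sum was the lowest of the group at 7.10 CPM. Over the 35 samples the r of *Ccr3* with the eosinophil list was 0.56, and -0.04 after subtracting group means. The part of eosinophil transcripts in the *Ccr3* level was not tested.

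*Cxcr4*, the CXCL12 receptor, had 164, 48.3, 83.8, 25.8, 51.0 and 34.0 CPM in CLEC4F- macs, 11.0, 11.5, 12.7, 35 and 13.6 CPM in moKCs, and 3.07 to 13.2 CPM in WD ResKCs at 24 weeks (median 7.44 CPM). CLEC4F- macs were above all ResKC samples except 1 SD sample at 24 weeks with 27.6 CPM, and only moKC replicate 4 reached into their range. The log2 fold change against CLEC4F- macs was -3.16 ± 0.47 (SE) in ResKCs (edgeR adjusted p = 2.29e-06) and -2.02 ± 0.47 in moKCs (edgeR adjusted p = 0.00251). Between ResKCs and moKCs it was -1.14 ± 0.47 (edgeR adjusted p = 0.196). The highest value, 164 CPM, was in CLEC4F- replicate 1, and without replicates 1 and 4 the log2 fold changes against CLEC4F- macs were -2.86 in ResKCs and -1.72 in moKCs, both still differentially expressed.

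*Ccr7*, the lymph node homing receptor, rested on 1 library. CLEC4F- macs had 85.5, 5.82, 8.21, 1.61, 6.21 and 4.89 CPM, against 3.68, 3.06, 3.97, 2.39 and 2.27 CPM in moKCs and 0.677 to 3.38 CPM in WD ResKCs at 24 weeks (median 2.45 CPM). Replicate 1 was far above the other CLEC4F- macs, and replicate 4 lay within the range of the ResKCs. With all samples *Ccr7* was lower in ResKCs (log2 fold change -3.03 ± 0.79 (SE), edgeR adjusted p = 0.00298) and in moKCs (-2.60 ± 0.83, edgeR adjusted p = 0.0262). Without replicate 1 the log2 fold changes were -1.24 (edgeR adjusted p = 0.159) and -0.81 (edgeR adjusted p = 0.541), and neither was differentially expressed. Over all settings, the adjusted p ranged from 0.000484 to 0.262 in ResKCs and from 0.0101 to 0.388 in moKCs. The call in moKCs was also lost without moKC replicate 1, 2, 4 or 5 (edgeR adjusted p = 0.0501 to 0.0630). Without replicates 1 and 4, differentially expressed receptors numbered 6 in ResKCs and 4 in moKCs in place of 7 and 5, since *Ccr7* no longer passed.

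The plot of *Ccr7* against marker sums shows this library. Replicate 1 had 46.4 CPM of *Cd79a*, which encodes a chain of the B-cell receptor complex, against 1.90 to 7.57 CPM in the other CLEC4F- macs. It had 15.4 CPM of *Flt3*, a cytokine receptor of dendritic cells, against 1.05 to 6.73 CPM. All 8 dendritic-cell markers exceeded 3 counts in every CLEC4F- mac sample, and all 5 B-cell markers did so in replicates 1, 2 and 6. It was therefore the levels of these markers, not their presence, that set replicate 1 apart. Over all 35 samples, the genes most like *Ccr7* in log2 CPM were *Ltb* (r = 0.81), *Cd69* (r = 0.79) and *Cd79a* (r = 0.75), lymphocyte genes; after subtracting group means the r values were 0.73, 0.69 and 0.67. The part of other cells in *Ccr7* was not tested.

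**Figure D2:**
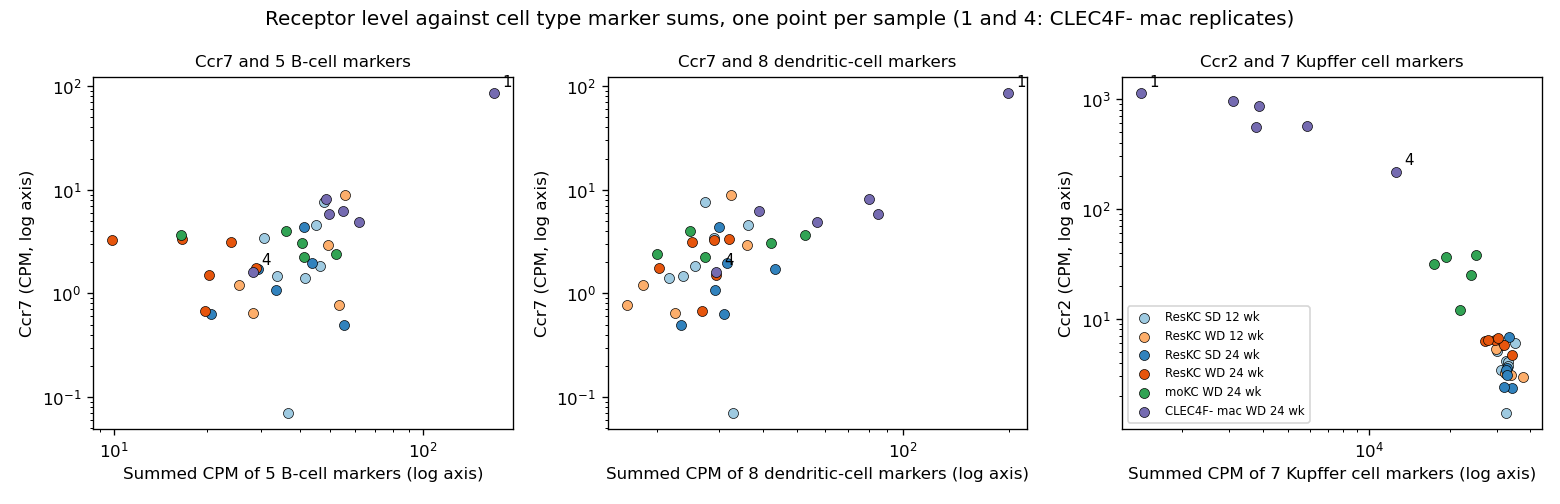
*Ccr7* against the summed CPM of 5 B-cell markers (left) and of 8 dendritic-cell markers (middle), and *Ccr2* against the summed CPM of 7 Kupffer cell markers (right), 1 point per sample on log axes, with CLEC4F- mac replicates 1 and 4 numbered. Replicate 1, with 85.5 CPM of *Ccr7*, is at the upper end of both marker sums, and replicate 4, with 217 CPM of *Ccr2*, has the highest Kupffer cell marker sum of its group.

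The right panel of that plot sets *Ccr2* against Kupffer cell markers. The 7 Kupffer cell markers summed to 1408 CPM in CLEC4F- replicate 1, which had the highest *Ccr2* (1131 CPM), and to 12629 CPM in replicate 4, which had the lowest. Replicate 4 was also the lowest of its group in *Ccr1*, *Ccr7*, *Ccrl2*, *Cx3cr1*, *Cxcr3* and *Cxcr4*. The part of the Kupffer cell transcripts of that library in this was not tested. Leaving out replicates 1 and 4 together moved the log2 fold changes of *Ccr1*, *Ccr2* and *Cx3cr1* in ResKCs against CLEC4F- macs to -4.03, -6.95 and -5.77, and all 3 stayed differentially expressed.

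*Cxcr3*, a receptor of activated lymphocytes, had means of 6.71 to 12.4 CPM over the 6 groups and was differentially expressed in none of the comparisons. CLEC4F- macs had 6.28 to 13.6 CPM with a median of 10.8 CPM, the moKC samples had 3.23, 8.33, 7.49, 8.11 and 6.37 CPM, and WD ResKCs at 24 weeks had 3.55 to 11.1 CPM with a median of 7.48 CPM. All these ranges overlapped. The log2 fold change was -0.58 ± 0.28 (SE) in ResKCs against CLEC4F- macs (edgeR adjusted p = 0.114), -0.67 ± 0.29 in moKCs against CLEC4F- macs (edgeR adjusted p = 0.129) and 0.09 ± 0.29 in ResKCs against moKCs (edgeR adjusted p = 0.927). Before adjustment, the edgeR p against CLEC4F- macs was 0.0462 in ResKCs and 0.0300 in moKCs. Over the 35 samples the most like genes were *Osgep* (r = 0.72), the B-cell gene *Cd79b* (r = 0.69) and *Sdhb* (r = 0.67).

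**Figure D3:**
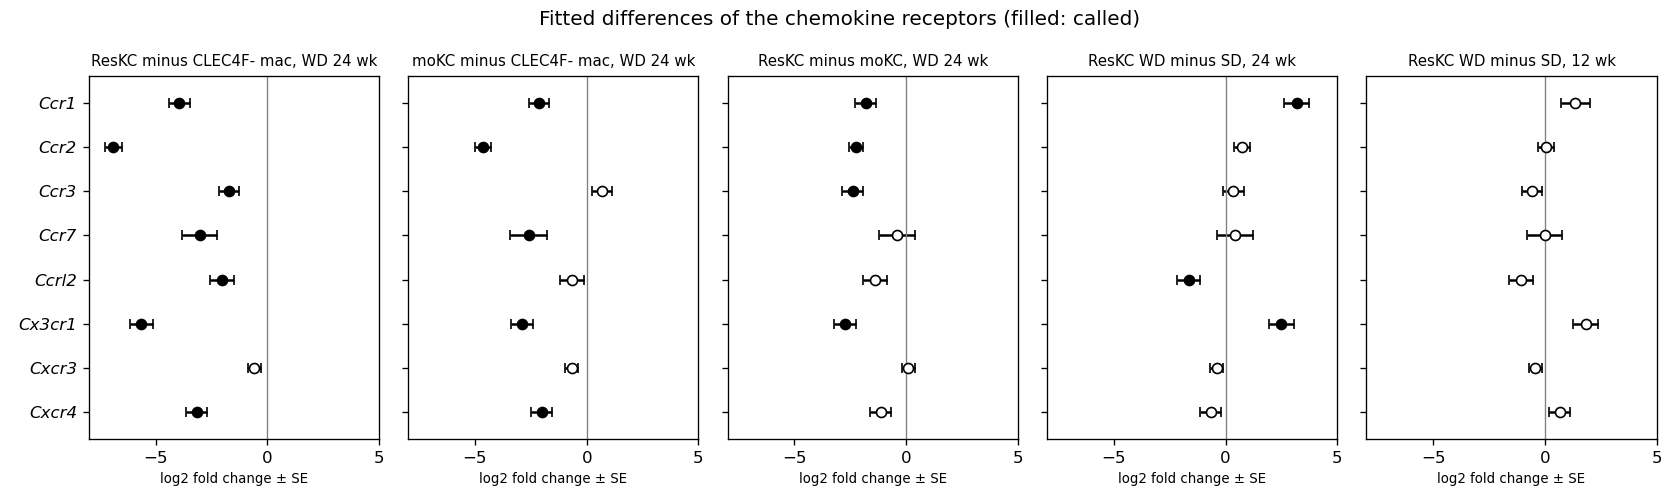
Fitted log2 fold change with its SE for each receptor in 5 comparisons, with the first-named group higher to the right of 0. Filled points are differentially expressed. In the first 3 panels each filled point lies to the left of 0, and with diet at 24 weeks *Ccr1* and *Cx3cr1* lie to the right and *Ccrl2* to the left.

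The second question was how the WD changed these receptors in ResKCs themselves. At 24 weeks 3 of the 8 receptors were differentially expressed between WD and SD ResKCs, where 3.35% of all genes were. *Ccr1* and *Cx3cr1* were higher on the WD, as were 2.38% of genes, and *Ccrl2* was lower, as were 0.976% of genes. The median log2 fold change of the 8 was 0.38, beside 0.00375 over all genes.

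*Ccr1* had 0.632, 1.23, 0.301, 1.39, 0.868 and 1.30 CPM in SD ResKCs at 24 weeks and 3.48, 6.75, 2.38, 21.6, 5.87 and 11.8 CPM in WD ResKCs. Every WD sample was above every SD sample. The rise was 9.04-fold (log2 fold change 3.18 ± 0.56 (SE), edgeR adjusted p = 0.000505), and it was differentially expressed in 12 of 12 fits without 1 sample. limma-voom, the tool family of the study, gave a log2 fold change of 2.91 with an adjusted p of 0.121, the highest over all settings, in which the lowest was 1.72e-05. Even on the WD the mean of 8.65 ± 7.14 CPM (SD, n = 6) in ResKCs was under the 30.5 ± 14.7 CPM (SD, n = 5) of moKCs.

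*Cx3cr1* had 1.33, 1.88, 1.88, 3.51, 2.53 and 0.433 CPM in SD ResKCs at 24 weeks and 5.08, 6.13, 5.91, 17.7, 3.77 and 26.0 CPM in WD ResKCs, again without overlap. It rose 5.65-fold (log2 fold change 2.50 ± 0.56 (SE), edgeR adjusted p = 0.00502), and this too held in 12 of 12 fits without 1 sample but not in limma-voom (2.36, adjusted p = 0.216, against 0.000451 to 0.216 over all settings). WD replicates 4 to 6 are of the second naming scheme, while all 6 SD samples at 24 weeks are of the first. With the scheme as a covariate, *Ccr1* and *Cx3cr1* were still differentially expressed. WD replicates 4 and 6 had the highest level of both *Ccr1* and *Cx3cr1*. The same samples had the lowest *Timd4* of their group, with 547 and 672 CPM, against 719 to 885 CPM in the other WD ResKCs and 885 to 1127 CPM in SD ResKCs at 24 weeks. *Clec4f* was 11906 and 13093 CPM in them, within the 11174 to 15581 CPM of the group. The part of this in the rise was not tested.

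*Ccr2* did not pass with diet. It was at 2.36 to 6.85 CPM in SD ResKCs at 24 weeks (median 3.24 CPM) and 4.65 to 6.62 CPM in WD ResKCs, ranges that overlap through 1 SD sample, with a log2 fold change of 0.74 ± 0.35 (SE; edgeR adjusted p = 0.180). The log2 fold changes of the others were 0.35 ± 0.46 for *Ccr3*, 0.42 ± 0.80 for *Ccr7*, -0.40 ± 0.28 for *Cxcr3* and -0.67 ± 0.45 for *Cxcr4*, with edgeR adjusted p of 0.372 or more.

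In all 4 ResKC groups *Ccr3*, *Ccr7* and *Cxcr3* had overlapping ranges. *Ccr3* had 4.14 ± 2.29 CPM (SD, n = 7) and 2.77 ± 1.30 CPM (SD, n = 5) at 12 weeks on the SD and the WD, and 2.46 ± 1.35 CPM and 3.12 ± 1.63 CPM (SD, n = 6 each) at 24 weeks. *Ccr7* had 2.93 ± 2.54 CPM, 2.89 ± 3.49 CPM, 1.71 ± 1.43 CPM and 2.29 ± 1.13 CPM in the same order, and *Cxcr3* had 12.4 ± 4.23 CPM, 9.18 ± 2.06 CPM, 9.41 ± 3.75 CPM and 7.14 ± 2.70 CPM.

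At 12 weeks none of the 8 receptors was differentially expressed with diet in edgeR, DESeq2 or limma-voom, and 2 of the 8 had an unadjusted p under 0.05 in edgeR. Of all tested genes, 0% were differentially expressed in edgeR, 1172 had an unadjusted p under 0.05, DESeq2 called 16 and limma-voom called 1. By naming scheme, 3 SD samples at 12 weeks are of the first and 4 of the second, while all 5 WD samples are of the first. None of the 8 was called under any of 11 settings, among them the naming scheme as a covariate. *Cx3cr1* had 6.90, 4.83, 11.4, 6.17 and 1.93 CPM on the WD and 0.665 to 5.18 CPM on the SD, with a median of 1.28 CPM, and the groups overlapped through 1 SD sample, since the other SD samples were at 1.84 CPM or less. Its log2 fold change was 1.82 ± 0.57 (SE; edgeR adjusted p = 0.339). *Ccr1* had 1.05, 2.60, 0, 2.25 and 3.24 CPM on the WD, and 0 to 1.91 CPM on the SD with a median of 0.569 CPM. The single samples at 0 counts allow up to 3 counts each, and the log2 fold change was 1.36 ± 0.66 (edgeR adjusted p = 0.568).

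The diet effect at 24 weeks minus that at 12 weeks was tested directly. None of the 8 receptors had an adjusted p under 0.05 in edgeR, DESeq2 or limma-voom, 1 of 8 had an unadjusted p under 0.05, and 0.283% of all genes had an adjusted p under 0.05. The difference on the log2 scale was 1.81 ± 0.90 (SE) for *Ccr1* (edgeR adjusted p = 0.363), 0.68 ± 0.82 for *Cx3cr1* (edgeR adjusted p = 0.772) and -1.33 ± 0.65 for *Cxcr4* (edgeR adjusted p = 0.354). So the diet differences of *Ccr1* and *Cx3cr1* at 24 weeks were not shown to differ from those at 12 weeks. At 12 weeks neither receptor was differentially expressed.

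With time on the WD, 1 of the 8 receptors was differentially expressed between 24 and 12 weeks, where 0.693% of genes were and 0.387% were higher at 24 weeks. This was *Ccr1*, with a mean of 1.83 ± 1.29 CPM (SD, n = 5) at 12 weeks and 8.65 ± 7.14 CPM (SD, n = 6) at 24 weeks. The log2 fold change was 2.23 ± 0.55 (SE; edgeR adjusted p = 0.0231). It did not pass without WD replicate 4 at 24 weeks (1.71, edgeR adjusted p = 0.0763), without WD replicate 3 at 12 weeks, which had 0 counts (1.91, edgeR adjusted p = 0.0579), or with the naming scheme of the alignments as a covariate (1.83, edgeR adjusted p = 0.0781, within 0.0137 to 0.228 over all settings). All 5 WD samples at 12 weeks are of 1 scheme.

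On the SD, none of the 8 receptors differed between 24 and 12 weeks in edgeR, DESeq2 or limma-voom, 1 of 8 had an unadjusted p under 0.05, and 0% of all genes were differentially expressed in edgeR (1208 at an unadjusted p under 0.05, 9 in DESeq2 and 0 in limma-voom). The lowest unadjusted p was that of *Cxcr4*, with 1.91 to 10.2 CPM at 12 weeks and 2.95 to 27.6 CPM at 24 weeks (log2 fold change 1.35 ± 0.44 (SE), edgeR adjusted p = 0.336).

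*Ccrl2*, the atypical chemerin-binding receptor, varied widely within groups. SD ResKCs at 24 weeks had 59.3, 146, 321, 182, 246 and 123 CPM, and WD ResKCs had 37.3, 26.4, 33.8, 50.2, 127 and 66.7 CPM. The groups overlapped, and at 12 weeks the SD samples alone ran from 37.9 to 392 CPM. At 24 weeks *Ccrl2* was 3.16-fold lower on the WD (log2 fold change -1.66 ± 0.53 (SE), edgeR adjusted p = 0.046). The call was lost in 9 of 12 fits without 1 sample, and over all settings the adjusted p ranged from 0.0137 to 0.853. With the naming scheme as a covariate it was -1.29 (edgeR adjusted p = 0.187), where all 6 SD samples at 24 weeks are of 1 scheme and the WD samples are 3 of each.

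*Ccrl2* moved with immediate-early and heat-shock genes such as *Fos*, *Jun* and *Hspa1a*, which cells induce within minutes of stress, including that of tissue digestion. The mean log2 CPM of 10 such genes was 8.37 ± 0.96 (SD, n = 6) in SD ResKCs at 24 weeks and 6.78 ± 0.76 (SD, n = 6) in WD ResKCs. Its Pearson r with *Ccrl2* was 0.90 over the 35 samples and 0.93 after subtracting group means, a description in which the points share library and scaling. With this mean as a covariate the diet difference of *Ccrl2* at 24 weeks was -0.10 on the log2 scale (edgeR adjusted p = 0.853). Since the mean itself differed between the diets, this fit cannot separate a change with diet from a change with these genes. In its single-cell data the paper reports lower *Fos* on the WD in both CD45+ and CD45- cells. The cause of the difference in these genes was not tested.

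Between populations *Ccrl2* had 436, 141, 256, 78.1, 345 and 140 CPM in CLEC4F- macs and 257, 53.4, 62.8, 266 and 103 CPM in moKCs. ResKCs were lower than CLEC4F- macs by -2.03 ± 0.54 (SE) on the log2 scale (edgeR adjusted p = 0.00328), and with the immediate-early covariate the difference was -1.05 (edgeR adjusted p = 0.000154, the lowest over all settings, the highest being 0.00719). moKCs did not pass against CLEC4F- macs (-0.65 ± 0.54, edgeR adjusted p = 0.506) or ResKCs (-1.38 ± 0.55 for ResKCs against moKCs, edgeR adjusted p = 0.176). The genes most like *Ccrl2* over the 35 samples were chemokines: *Ccl4* (r = 0.96), *Cxcl2* (r = 0.96) and *Ccl3* (r = 0.95), with r of 0.95, 0.97 and 0.94 after subtracting group means.

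*Cxcr4* moved with the same genes within groups (r = 0.74), and less over all samples (r = 0.38), where CLEC4F- macs lay above the ResKCs at equal immediate-early levels. With the covariate its log2 fold change against CLEC4F- macs was -2.31 in ResKCs (edgeR adjusted p = 1.54e-06) and -1.72 in moKCs (edgeR adjusted p = 0.000165), both differentially expressed, with adjusted p of 1.11e-10 to 0.00208 and of 0.000165 to 0.075 over all settings.

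**Figure D4:**
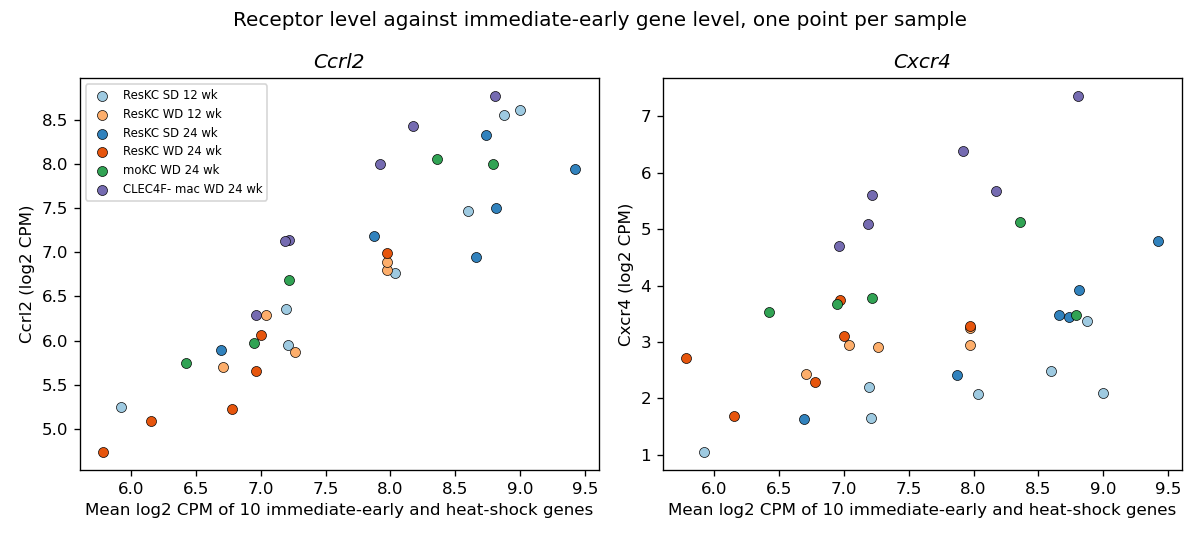
*Ccrl2* (left) and *Cxcr4* (right) in log2 CPM against the mean log2 CPM of 10 immediate-early and heat-shock genes, 1 point per sample, coloured by group. *Ccrl2* rises with the x axis over the 35 samples (r = 0.90), and the points of CLEC4F- macs lie mostly above those of ResKCs at a similar x for both receptors.

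Levels were set side by side between receptors only per kilobase of exon. In CLEC4F- macs *Cx3cr1* had 119 ± 32.6 CPM per kilobase (SD, n = 6), *Ccr2* 106 ± 48.9, *Ccrl2* 89.6 ± 53.3, *Ccr1* 47.0 ± 10.8 and *Cxcr4* 37.5 ± 28.2, so that the spread of the first 3 overlaps. *Ccr7*, *Cxcr3* and *Ccr3* were under 10 CPM per kilobase. In moKCs *Ccrl2* led with 57.1 ± 40.3 CPM per kilobase (SD, n = 5), ahead of *Cx3cr1* with 16.0 ± 9.60 and *Ccr1* with 10.8 ± 5.18. In all 4 ResKC groups *Ccrl2* was the highest, from 21.9 ± 14.3 (SD, n = 6) in WD ResKCs at 24 weeks to 69.1 ± 35.8 (SD, n = 6) in SD ResKCs at 24 weeks, and every other receptor was under 10 CPM per kilobase. The lowest were *Ccr1* in SD ResKCs, with 0.336 ± 0.151 at 24 weeks, and *Ccr2* in WD ResKCs, with 0.893 ± 0.109 at 24 weeks.

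Over the 35 samples the patterns of *Ccr1*, *Ccr2* and *Cx3cr1* were alike in log2 CPM, with r of 0.92 between *Ccr1* and *Cx3cr1*, 0.93 between *Ccr2* and *Cx3cr1* and 0.86 between *Ccr1* and *Ccr2*. After subtracting group means these were 0.33, 0.38 and 0.06, so the likeness was mostly one of group levels. The genes most like *Cx3cr1* were *Itgax* (r = 0.97, within groups 0.84), which encodes CD11c, *Lat2* (r = 0.97, within groups 0.72) and *Slamf7* (r = 0.95, within groups 0.63). Those most like *Ccr1* were *Sulf2* (r = 0.95), *Gm36161* (r = 0.94) and *Emp1* (r = 0.94), and those most like *Ccr2* were *Emb* (r = 0.97), *Gsn* (r = 0.97) and *Sirpb1a* (r = 0.96). *Ccr3* was most like *Ryr1* (r = 0.73), *Esr1* (r = 0.72) and *Tnfrsf13b* (r = 0.71), and *Cxcr4* was most like *Tent5c* (r = 0.92), *Gdf15* (r = 0.89) and *Gm37795* (r = 0.88).

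The other receptors of the family were mostly low or alike between groups. Of 17 listed, 10 passed the filter, and 3 were differentially expressed in ResKCs against CLEC4F- macs, all lower, where 10.4% of all genes were and 6.04% were lower: *Cxcr5* (log2 fold change -2.25, edgeR adjusted p = 0.0219), *Cxcr6* (-2.0, edgeR adjusted p = 0.0341) and *Ackr4* (-1.60, edgeR adjusted p = 0.0241). *Cxcr5*, which homes B cells to follicles, was at 17.1 CPM in CLEC4F- replicate 1 and at 0.323 to 1.63 CPM in the other CLEC4F- macs. Without replicate 1 its log2 fold change was -0.39 in ResKCs (edgeR adjusted p = 0.712) and -0.61 in moKCs (edgeR adjusted p = 0.684), against -2.47 in moKCs with it (edgeR adjusted p = 0.0368), the 1 call of the 10 between moKCs and CLEC4F- macs, which held in 6 of 11 fits without 1 sample. *Cxcr6* held in 9 of 12 such fits and did not pass without CLEC4F- replicate 1 (-1.61, edgeR adjusted p = 0.112), nor *Ackr4* without CLEC4F- replicate 5 (-1.44, edgeR adjusted p = 0.0542). The background was 5.05% of genes between moKCs and CLEC4F- macs, and 1.39% between ResKCs and moKCs. Between ResKCs and moKCs the lowest edgeR adjusted p over the 10 was 0.106, and with diet at 24 weeks *Ackr4*, a scavenging receptor, was lower on the WD (-1.99, edgeR adjusted p = 0.0219). The median log2 fold change over the 10 was -0.56, 0.03, -0.44 and 0.02 in these 4 comparisons.

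Of 19 listed ligands of the 8 receptors, 15 passed the filter. The share of all genes lower in ResKCs than in CLEC4F- macs was 6.04%, of 10.4% in either direction. Against CLEC4F- macs, ResKCs were lower in 5, among them *Ccl3* (log2 fold change -2.59, edgeR adjusted p = 6.49e-05), *Ccl9* (-2.41, edgeR adjusted p = 1.03e-06), *Ccl4* (-1.98, edgeR adjusted p = 0.00147) and *Ccl5* (-1.68, edgeR adjusted p = 6.54e-05), and higher in 1, the CCR3 ligand *Ccl24* (1.91, edgeR adjusted p = 1.81e-07). Without 1 sample these 5 named ligands were called in 12 of 12 fits and the sixth, *Ccl7*, in 5 of 12, with edgeR adjusted p of 0.0300 to 0.121. The mean of *Ccl24* was 285 ± 56.5 CPM (SD, n = 6) for WD ResKCs, 226 ± 54.5 CPM (SD, n = 5) for moKCs and 75.7 ± 37.2 CPM (SD, n = 6) for CLEC4F- macs. *Ccl24* was also higher in moKCs than in CLEC4F- macs (1.58, edgeR adjusted p = 2.34e-05), while *Ccl9* (-1.75, edgeR adjusted p = 0.000495) and *Ccl5* (-1.14, edgeR adjusted p = 0.0123) were lower. Between ResKCs and moKCs, *Ccl7* (-1.87, edgeR adjusted p = 0.0287) and *Ccl3* (-1.70, edgeR adjusted p = 0.0474) were lower in ResKCs, in 5 and 3 of 11 fits without 1 sample. Without moKC replicate 1 the values were -1.09 (edgeR adjusted p = 0.201) and -1.34 (edgeR adjusted p = 0.129).

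With diet at 24 weeks, 4 ligands were lower in WD ResKCs and 1 was higher, where 0.976% of all genes were lower and 2.38% higher. *Ccl9*, a CCR1 ligand, rose from 17.4 ± 5.97 CPM (SD, n = 6) to 103 ± 45.6 CPM (SD, n = 6; log2 fold change 2.57, edgeR adjusted p = 1.5e-05). *Ccl3* (-1.91, edgeR adjusted p = 0.0103), *Ccl7* (-1.69, edgeR adjusted p = 0.024), *Ccl4* (-1.52, edgeR adjusted p = 0.0403) and *Cxcl12* (-1.07, edgeR adjusted p = 0.0363), the CXCR4 ligand, were lower. Without 1 sample, the calls held in 12 of 12 fits for *Ccl9* and *Ccl3*, 10 for *Ccl7*, 5 for *Cxcl12* and 3 for *Ccl4*. The summed 5 stellate cell markers had a median of 85.8 CPM (52.2 to 167 CPM) in SD ResKCs and 37.9 CPM (27.6 to 84.8 CPM) in WD ResKCs, none of them was at 0 in all samples of a group, and their part in the *Cxcl12* difference was not tested. *Ccl3* and *Ccl4* are among the genes most like *Ccrl2*, which moved with the immediate-early genes. The median log2 fold change over the 15 ligands was -0.39 in ResKCs against CLEC4F- macs, 0.26 in moKCs against CLEC4F- macs, -0.68 in ResKCs against moKCs and -0.05 with diet at 24 weeks.

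Of 26 listed genes of receptor signalling (G-protein subunits, arrestins, kinases and regulators of G-protein signalling), all 26 passed the filter. In ResKCs against CLEC4F- macs 2 were differentially expressed, where 10.4% of all genes were. *Rgs1* (log2 fold change -2.0, edgeR adjusted p = 0.000502) and *Rgs18* (-2.45, edgeR adjusted p = 0.0216), which shorten G-protein signals, were lower, and without CLEC4F- replicate 1 *Rgs18* did not pass (-2.19, edgeR adjusted p = 0.0546). *Rgs18* was lower in moKCs than in CLEC4F- macs (-3.10, edgeR adjusted p = 0.018), *Rgs1* was lower in WD than in SD ResKCs at 24 weeks (-1.32, edgeR adjusted p = 0.0499, called in 2 of 12 fits without 1 sample), and between ResKCs and moKCs the lowest edgeR adjusted p over the 26 was 0.0554, that of *Rgs10*. The median log2 fold change of the list lay between -0.15 and -0.02 in these 4 comparisons.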

How the data were processed

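The authors sorted liver macs, sequenced TruSeq libraries as single reads on a NextSeq500, mapped them to mm10 with HISAT2 2.2.0 and deposited whole-number counts per gene symbol from featureCounts 2.0.0; FastQC 0.11.9 and SAMtools 1.10 are also in the submitters' processing notes. The annotation, strand setting and treatment of reads that fit several genes are not given in the sources used here.

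From these counts, 13421 of 54735 genes passed over 1 CPM in at least 5 of 35 samples. All groups were fitted together with edgeR 4.0.16 (R 4.3.3), using TMM factors and the quasi-likelihood test with Benjamini-Hochberg adjustment over all tested genes. Genes were called differentially expressed at an adjusted p under 0.05 and a log2 fold change above 1 in size, and a difference of diet effects needed an adjusted p under 0.05. CPM values use TMM-scaled library sizes, and log2 CPM has a prior count of 2. Per-kilobase levels divide by exon length in GENCODE M21. On simulated counts, with 200 of 13421 genes changed 4-fold, 84% were recovered for the difference of diet effects and 86.5% to 91.5% for the other comparisons. Alternatives used DESeq2 1.42.0 and limma 3.58.1 (voom), other scalings, filters, limits and covariates, and fits without each sample. Leaving out CLEC4F- replicates 1 and 4 was added after seeing the data, as were the fits of listed genes without each sample. Tables were handled with Python 3.11.15, pandas 2.3.3 and numpy 2.4.6.

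Groups followed the sample titles. The study gives its n as animals, while the labels do not tie each sample to a mouse. The text names the 8 receptors, genes called in 3 related lists (at most 4 in each direction), markers beside a result, and the 3 genes with the highest Pearson r with each receptor. The receptors and lists were chosen with earlier results of these data known. Some genes are not reported here.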

Additional observations from a re-analysis of the deposited data

Results flagged for a closer look

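Each receptor was checked in each of the 6 groups, 48 groups of values in all, for a sample whose gap to the nearest other sample was too large a share of the group's range (Dixon's test). Chance flags about 1 in 20 such groups, and 6 were found. *Ccr1* was at 6.84 CPM in moKC replicate 1, where the other moKCs had 25.8 to 41.7 CPM, and *Cxcr3* was at 3.23 CPM in the same sample, where the others had 6.37 to 8.33 CPM. *Cxcr4* was at 35 CPM in moKC replicate 4, against 11.0 to 13.6 CPM in the others. *Ccr1* was at 77.7 CPM in CLEC4F- replicate 4, the sample with the highest Kupffer cell marker sum of its group, against 128 to 162 CPM. *Ccr2* was at 1.40 CPM in SD ResKC replicate 3 at 12 weeks, against 3.39 to 6.05 CPM, and at 4.65 CPM in WD ResKC replicate 5 at 24 weeks, against 5.80 to 6.62 CPM.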

How the results depend on the processing

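Of 64 pairs of receptor and comparison, 20 were differentially expressed, of which 11 were so under every setting and without every sample in turn, and 9 lost the call at least once. Of the other 44 pairs, 0 were called under an alternative, and no called pair changed sign in 462 fits. Settings that moved a number of called receptors by over 1.5 times were few. With limma-voom it was 0 in place of 3 between diets at 24 weeks. Between 24 and 12 weeks on the WD it was 0 in place of 1 with limma-voom, with limits of 1.5 and 0.01, with the naming scheme as a covariate, and with the groups fitted alone. Without 1 sample, it ranged from 6 to 7 for ResKCs and 4 to 5 for moKCs against CLEC4F- macs, 3 to 4 between ResKCs and moKCs, 2 to 3 between diets at 24 weeks and 0 to 1 between times on the WD. With the replicate number as a block it was 3 in place of 5 for moKCs against CLEC4F- macs, 2 in place of 4 for ResKCs against moKCs (*Ccr1* with an adjusted p of 0.0531 and *Ccr3* with 0.150 did not pass in edgeR) and 0 in place of 1 between times on the WD. The numbers were not taken to pair the samples, though this could not be settled. Comparisons between diets or times set different mice against each other, so they cannot show pairing. Between ResKCs and CLEC4F- macs the mean correlation of same-numbered samples was 0.117, and 5 of 6 correlated best with their own number. It was -0.032 for moKCs against CLEC4F- macs and 0.000664 for ResKCs against moKCs, with 1 of 5 best in each. Replicate 3 is of the second naming scheme in moKCs but of the first in WD ResKCs at 24 weeks and CLEC4F- macs. Blocks with moKCs may therefore join unmatched samples. Over all genes, the block gave 389 calls in place of 678 for moKCs against CLEC4F- macs, 76 in place of 186 for ResKCs against moKCs, 37 in place of 93 between times on the WD, and 0 in place of 38 for the difference of diet effects, where DESeq2 gave 192. Between diets at 24 weeks, 450 calls became 293 with limma-voom, 270 with the naming scheme as a covariate and 153 with the immediate-early covariate. The cause was not tested. Counts of a few reads limit *Ccr1* on the SD and *Ccr7* in ResKCs.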
